A study of Mus musculus with 19 samples.

Results

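The genes of the nuclear pore and of transport through it were followed across 7 blood cell populations sorted from bone marrow, taken from C57BL/6 mice as adults of 8 to 12 weeks. Members were taken by gene symbol: nucleoporins named Nup and a number, exportins (Xpo), importins of the beta class (Ipo, Kpnb and Tnpo), importins alpha (Kpna), and Ran with its binding proteins Ranbp1 to Ranbp3. The array carried 48 such genes among 38391 features, namely 21 nucleoporins, 6 exportins, 11 importins of the beta class, 6 importins alpha and 4 genes of the Ran group. Total RNA was measured on 19 single-colour arrays, 1 per sample, of a custom design that the submitters made for long noncoding RNAs and that also covers coding genes.

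No allele or treatment is given for any group. Late erythroblasts (LE, 3 arrays) were Ter119+ with low forward scatter and intermediate CD44, and early erythroblasts (EE, 2 arrays) were Ter119+ with high forward scatter and high CD44. Granulocytes (GR, 3 arrays) were taken as Gr1+ cells. The 3 progenitor types lacked lineage markers and Sca1 and carried cKit. Among them, megakaryocyte-erythroid progenitors (MEP, 3 arrays) were low in CD16/32 and CD34, granulocyte-macrophage progenitors (GMP, 2 arrays) were high in both, and common myeloid progenitors (CMP, 3 arrays) were low in CD16/32 and high in CD34. LSK cells (3 arrays), which lack lineage markers and carry cKit and Sca1, hold the stem cells and multipotent progenitors. Each sort gate is a population and not a single clone or stage.

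Nuclear pores are ring-shaped assemblies of nucleoporins that span the nuclear envelope, and large cargo crosses them bound to importins or exportins. The small GTPase Ran sets the direction: bound to GTP in the nucleus, it releases cargo from importins and loads it onto exportins. In the blood, erythroblasts condense and finally expel their nucleus, and granulocytes reshape theirs into lobes, so both lineages end with an altered nucleus.

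A level below is the log2 signal of a probe minus log2 of the 75th percentile of its array, and a difference is the log2 difference of 2 cell type means with its standard error (SE) from limma. Testing required that at least 1 of the groups compared had the probe well above background throughout, and a member was called at a Benjamini-Hochberg adjusted p under 0.05 over all features tested. Of the 48 members, 44 were well above background on all 19 arrays. Nup214 was so on 18 arrays and Nup210l on 7, while Kpna7 and Nup62cl were well above background on 0 arrays. Kpna7, Nup62cl and Nup210l were therefore not tested, which left 45 members. Levels of different genes come from different probes and were not set against each other. Where arrays are said not to overlap, the share of all features without overlap was not counted.

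The 5 erythroblast arrays were dimmer than the other 14. Their 75th percentile lay between 50 and 80.9 intensity units, against 266 to 606 on the others, and 42.9% to 47.1% of their spots were well above background, against 49.5% to 66.3%. Levels are therefore shares of what each array measured and not amounts per cell, and in bulk samples fewer cells of a type and less RNA per cell cannot be told apart. The part of this dimness in the erythroblast results was not tested. Detection of lineage markers did not separate the cell types, since all 8 erythroblast markers were well above background on every CMP, MEP and GR array too, and all 8 granulocyte markers on every LSK, CMP, LE and GMP array. Their amounts did: the summed level of the erythroblast markers, in multiples of the 75th percentile, was 14500 to 19300 on EE and 23200 to 26500 on LE arrays, against at most 625 elsewhere. That of the granulocyte markers was 5480 to 6200 on GR arrays, against at most 980 elsewhere, and that of 6 stem cell markers was 106 to 110 on LSK arrays, against at most 57.1 elsewhere. The summed level of 5 erythroid progenitor markers was 180 to 230 on MEP arrays and 147 to 216 on CMP arrays, so the ranges overlapped. Nothing in the labels says that replicates came from separate animals, so p-values reflect only how these samples vary, possibly for technical reasons, and precision is set by how many arrays there are.

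Over the 7 cell types, 44 of the 45 members tested varied in a moderated F test, beside 91% of all features tested. The adjusted p-values of these 44 members were at most 0.000103 (Tnpo3). Nup214 had an adjusted p of 8.86e-05 but was not called, because its highest mean was in late erythroblasts and 1 of their 3 arrays was not well above background. Early erythroblasts held the highest mean of 16 of these 44 members, GMP of 15, CMP of 7, late erythroblasts of 2 (Nup133 and Xpo7), granulocytes of 2 (Kpna4 and Xpo6), LSK cells of 1 (Ipo11) and MEP of 1 (Ipo4). Late erythroblasts held the lowest mean of 21 members, granulocytes of 15 and LSK cells of 8. With levels scaled to the 207 spike-in spots instead, CMP held 34 of the highest means and early erythroblasts 0, while Xpo7 in late erythroblasts and Kpna4 and Xpo6 in granulocytes kept their place.

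On the probes used here, the 5 members with the widest range of means were Xpo7 (6.8), Ipo8 (3.71), Kpna2 (3.46), Nup37 (3.28) and Nup133 (3.27). For Xpo7 the order was LE, EE, LSK, GMP, CMP, MEP, GR, and only the neighbours CMP and MEP overlapped between arrays. On the second probe of Xpo7 the order was LE, LSK, MEP, GMP, CMP, EE, GR. Its means ran from 0.44 in LE to -2.67 in GR, with -1.78 in EE, so the place of EE and the width of the range rest on the probe. For Nup133 the order was LE, EE, CMP, GMP, MEP, LSK, GR, with overlap between GMP and MEP only. For Kpna2 it was EE, GMP, LE, CMP, GR, MEP, LSK, and the arrays of LE and CMP, and of CMP and GR, overlapped. For Ipo8 the order was GMP, MEP, CMP, LSK, GR, EE, LE, and the 4 highest cell types could not be ranked, since each overlapped its neighbour. For Nup37 the order was GMP, CMP, MEP, LSK, EE, GR, LE, with no overlap between any neighbours.

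**Figure D1:**
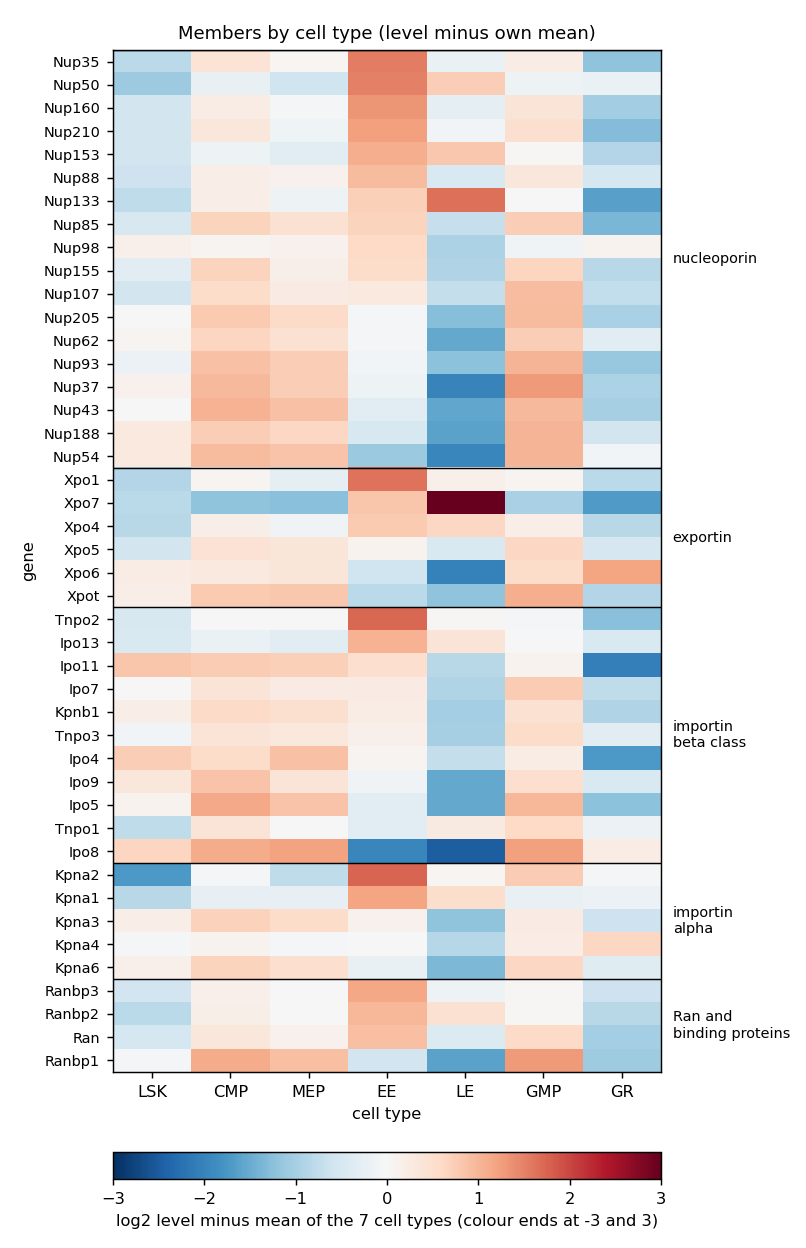
Mean level of each of 44 members (rows, grouped by class) in each of 7 cell types (columns), as log2 difference from the mean of the 7 cell types of the same gene. Red marks high and blue low cell types, and the scale ends at -3 and 3; Xpo7 and Nup133 are highest in LE, Xpo6 and Kpna4 in GR, and every member is lowest in LE, GR or LSK. With spike-in scaling EE holds the highest mean of 0 members and Nup133 is highest in CMP.

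Late erythroblasts were first compared with early ones, the last erythroid step sampled. Nuclear transport genes were mostly lower in late erythroblasts, and a single exportin rose steeply. Of 45 members, 38 fell and 3 rose, beside 37.8% of all 19133 features tested called lower and 22.1% called higher (59.9% in all). The median difference was -1.15 for members and -0.17 for all features. The members that rose were Xpo7, the scaffold nucleoporin Nup133 and the import receptor Tnpo1, of which Nup133 and Tnpo1 did not rise with spike-in scaling.

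Xpo7, exportin 7, is an export receptor that in mouse erythroblasts is known to carry histones out of the condensing nucleus. Its level was 6.1, 5.62 and 5.93 on LE arrays, against 1.24 and 2.01 on EE arrays. Every late array stood above every early one by more than 3 log2 units, and the difference was 4.26 ± 0.20 (limma adjusted p = 2.39e-09), a 19.2-fold higher signal. A second probe for Xpo7 differed by 2.22, with means of 0.44 in late and -1.78 in early erythroblasts. Within the slides that held both cell types, the difference was 4.87 on slide 1 and 3.93 on slide 3.

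Nup133 belongs to the Y complex, the outer scaffold of the pore. Its level was 5.98, 5.97 and 5.9 on LE arrays, against 5.01 and 4.98 on EE arrays. The groups did not overlap and were tight, with a difference of 0.95 ± 0.10 (adjusted p = 1.94e-06). The other 5 Y complex members moved the opposite way. Nup37 differed by -1.84 ± 0.14, Nup160 by -1.63 ± 0.15, Nup85 by -1.38 ± 0.12, Nup43 by -1.22 ± 0.11 and Nup107 by -1.02 ± 0.14, each called lower. Seh1l and Sec13, 2 further components of the complex that the symbol rule does not take, had differences of -1.76 ± 0.18 and -0.7 ± 0.14, with adjusted p = 1.44e-06 and 0.000525. With spike-in scaling, which lowered the median of all features to -1.12, Nup133 stood at 0.00. Both scalings take 1 value off each array, so the distance of Nup133 from that median, 1.12, is the same in both by construction.

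The promoter of Nup133 is shown because Nup133 alone of the 6 Y complex members rose in late erythroblasts. The window runs from 250 bases before to 50 after the RefSeq start, on the minus strand of GRCm38.p6 at chr8:123949216-123949515, and capitals mark TGACGTCA, the palindromic cyclic AMP response element.
Nup133: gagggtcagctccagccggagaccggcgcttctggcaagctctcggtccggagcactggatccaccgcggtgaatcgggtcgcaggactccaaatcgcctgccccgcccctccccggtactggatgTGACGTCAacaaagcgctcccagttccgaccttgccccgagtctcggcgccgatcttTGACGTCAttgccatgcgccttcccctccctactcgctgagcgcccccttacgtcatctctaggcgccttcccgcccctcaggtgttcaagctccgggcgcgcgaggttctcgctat
TGACGTCA stood at positions -124 and -67 from the start. It occurred in 1.79% of 32851 RefSeq promoter windows of this length, and in 2 of 45 windows of members (4.44%), those of Nup133 and Nup214. A match is only a match of letters.

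Tnpo1, transportin 1, imports RNA-binding proteins with a proline-tyrosine signal. Its level was 3.53, 3.29 and 3.46 on LE arrays, against 2.72 and 2.9 on EE arrays, so the groups did not overlap. The difference was 0.61 ± 0.11 (adjusted p = 0.000198), and its second probe differed by 1.48. With spike-in scaling it was -0.34. Its distance from the median of all features is the same on both scales by construction. A close relative, Tnpo2, went the other way, with 1.45, 0.74 and 1.0 on LE arrays, against 2.88 and 2.62 on EE arrays, a difference of -1.69 ± 0.22 (adjusted p = 1.4e-05).

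**Figure D2:**
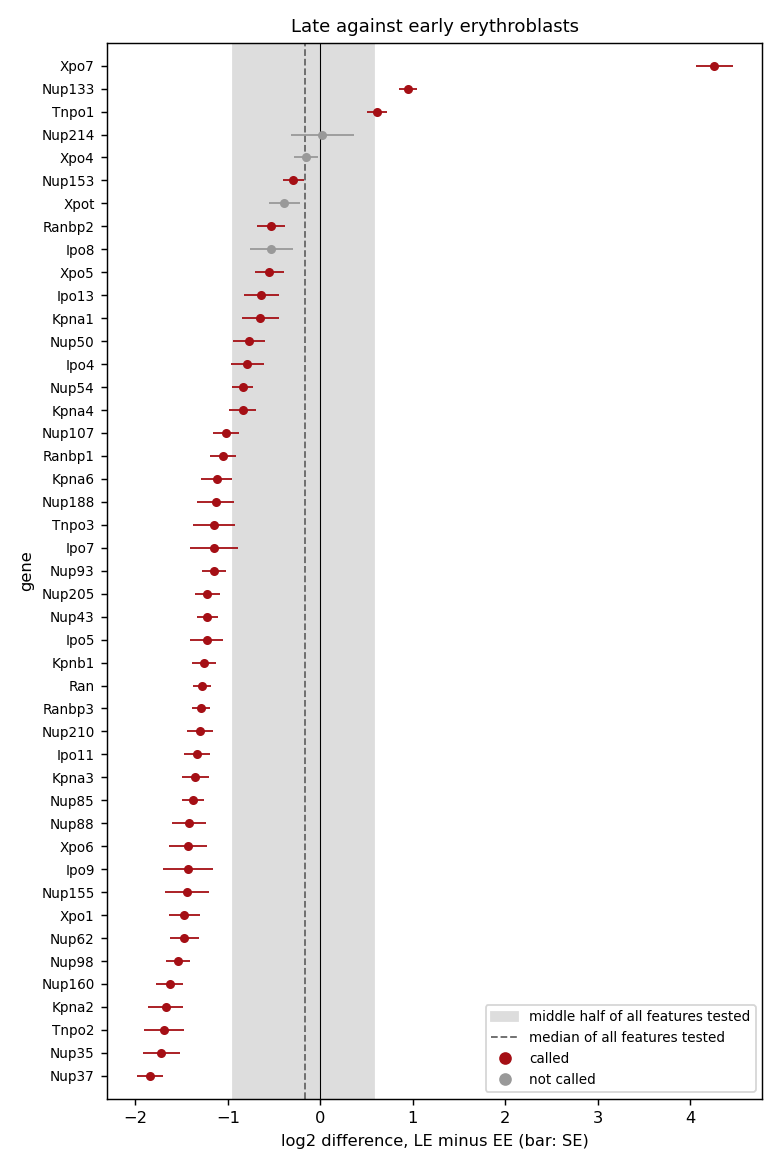
Log2 difference between LE and EE (horizontal axis) for each of 45 members tested, with bars of 1 SE; red points were called and grey ones were not. Xpo7 at 4.26, Nup133 at 0.95 and Tnpo1 at 0.61 lie right of 0, while 38 called members lie left of it, most of them left of the shaded middle 50% of all features. With spike-in scaling Nup133 lies at 0.00 and Tnpo1 at -0.34.

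The 4 members of the Ran group were all lower in late erythroblasts. Ran itself had 7.76, 7.61 and 7.75 on LE arrays, against 9.12 and 8.85 on EE arrays, without overlap, and differed by -1.28 ± 0.10 (adjusted p = 1.67e-07). Ranbp1, which helps GTP hydrolysis on Ran, had 2.38, 2.52 and 2.84 on LE arrays, against 3.59 and 3.67 on EE arrays and differed by -1.05 ± 0.14. Ranbp3, a cofactor of Xpo1, had 5.17, 5.11 and 5.03 on LE arrays, against 6.48 and 6.31 on EE arrays and differed by -1.29 ± 0.10. The largest protein of the group, the cytoplasmic filament protein Ranbp2, changed least, with 3.74, 3.58 and 3.95 on LE arrays, against 4.18 and 4.4 on EE arrays and a difference of -0.53 ± 0.15 (adjusted p = 0.00692).

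Of the 5 other exportins, 3 fell in late erythroblasts. Xpo1, the general receptor for leucine-rich export signals, had 3.87, 3.81 and 4.3 on LE arrays, against 5.27 and 5.65 on EE arrays and differed by -1.47 ± 0.17 (adjusted p = 5.06e-06). Xpo6, which exports actin with profilin, had -1.62, -2.09 and -1.57 on LE arrays, against -0.18 and -0.48 on EE arrays and differed by -1.43 ± 0.21 (adjusted p = 3.66e-05). Neither overlapped between groups. Xpo5, the receptor for precursor microRNAs, differed by -0.55 ± 0.16 with 1.57, 1.03 and 1.52 on LE arrays, against 2.08 and 1.77 on EE arrays. The exporter of eIF5A, Xpo4, had 1.45, 1.52 and 1.55 on LE arrays, against 1.68 and 1.64 on EE arrays, and Xpot, the exporter of transfer RNA, had 1.33, 1.35 and 1.99 on LE arrays, against 1.86 and 2.04 on EE arrays. These 2 were not called, with differences of -0.15 ± 0.13 and -0.39 ± 0.17 (adjusted p = 0.33 and 0.0559).

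All 5 importins alpha that were tested fell. Importins alpha bind the classical import signal and hand cargo to Kpnb1. Kpna2 had 6.47, 6.16 and 6.42 on LE arrays, against 8.32 and 7.72 on EE arrays and fell by 1.67 ± 0.19 (adjusted p = 4.73e-06), and its other 3 probes had differences between -1.80 and -1.77. Kpna3 had 0.51, 0.27 and 0.3 on LE arrays, against 1.66 and 1.75 on EE arrays and differed by -1.35 ± 0.15. Neither gene overlapped between the groups. Kpna4 had 1.23, 1.57 and 1.68 on LE arrays, against 2.23 and 2.44 on EE arrays and differed by -0.84 ± 0.15. Kpna1 had 1.78, 1.43 and 1.79 on LE arrays, against 2.28 and 2.35 on EE arrays and differed by -0.65 ± 0.20 (adjusted p = 0.0128). Kpna6 had 1.41, 0.84 and 1.21 on LE arrays, against 2.21 and 2.34 on EE arrays on the probe used here, with a difference of -1.12 ± 0.17, whereas its second probe differed by 0.46, so its direction depends on the probe.

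Among nucleoporins, 17 of 19 tested fell and 1 rose. After Nup37, the largest falls were those of Nup35, an inner ring protein, with 3.05, 3.01 and 2.95 on LE arrays, against 4.85 and 4.59 on EE arrays and a difference of -1.72 ± 0.20, and of Nup160, with 1.57, 1.11 and 1.67 on LE arrays, against 3.0 and 3.16 on EE arrays. Nup37 itself had 1.63, 1.3 and 1.76 on LE arrays, against 3.37 and 3.44 on EE arrays. All 3 lay far below the early arrays. All 5 inner ring members fell, by -1.72 to -1.13, and both channel proteins, Nup62 and Nup54, fell too. The smallest fall was that of the basket protein Nup153, with 4.35, 4.23 and 4.45 on LE arrays, against 4.65 and 4.62 on EE arrays and a difference of -0.29 ± 0.11 (adjusted p = 0.0314), whose sign turned with quantile normalization and with the percentile of detected probes. Nup214, a cytoplasmic face protein, did not pass the test (0.02 ± 0.34, adjusted p = 0.966).

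Of 11 importins of the beta class, 9 fell, 1 rose and 1, Ipo8, was not called. Besides Tnpo2, the falls ran from -1.43 ± 0.27 for Ipo9, a histone importer, to -0.64 ± 0.19 for Ipo13, which carries cargo both ways. Kpnb1, the partner of the importins alpha, differed by -1.26 ± 0.13 and Ipo7, an importer of ribosomal proteins, by -1.15 ± 0.26. Tnpo3, the importer of SR splicing factors, had 2.59, 3.63 and 2.56 on LE arrays, against 4.19 and 3.97 on EE arrays, with 1 late array close to the early ones, and differed by -1.15 ± 0.23 (adjusted p = 0.000506).

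Of 29 other nuclear transport genes tested, 21 fell and 2 rose, with a median difference of -1.07. The largest were falls of Ranbp6, an importin (-2.36 ± 0.29), Seh1l, Cse1l, which returns importins alpha to the cytoplasm (-1.72 ± 0.17), and Ndc1, a membrane anchor of the pore (-1.63 ± 0.17). Ranbp6 was dim in LE, at -3.52, -3.94 and -2.59, and well above background on only 16 of the 19 arrays, which limits the size of its fall. Of 20 cell division genes, 19 fell, with a median difference of -1.42, and the part of proliferation in the falls of the transport genes was not tested. The summed level of 8 granulocyte markers was 924 to 980 on late arrays and 198 to 662 on early arrays, and that of 6 macrophage markers 8.09 to 13.2 and 6.79 to 6.99. Of both lists every marker was well above background on all late arrays, and their part in the differences was not tested.

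Early erythroblasts were compared with MEP, the progenitors of their lineage. The members split much as all features did. Of 45 members, 19 (42.2%) rose and 16 (35.6%) fell, beside 43.6% of all 22770 features tested called higher and 37.8% lower (81.4% in all). The median difference was 0.03 for members and 0.22 for all features. The import adaptor Kpna2, the basket protein Nup50, Xpo7, Xpo1 and Tnpo2 rose most, while Ipo8, the channel protein Nup54 and the transfer RNA exporter Xpot fell most. These signs are relative to the 75th percentile: with spike-in scaling the median of all features was -3.28, and 0 members were called higher and 44 lower. The median member relative to all features was -0.19 in both scalings, which is so by construction. With normexp background correction 15 rose and 23 fell, and with the mean of all probes of a gene 21 rose and 11 fell.

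Kpna2 is the importin alpha most tied to dividing cells. Its level was 8.32 and 7.72 on EE arrays, against 5.69, 5.57 and 5.29 on MEP arrays. The groups lay more than 2 log2 units apart, and the difference was 2.51 ± 0.20 (adjusted p = 1.64e-08), a 5.68-fold higher signal. Its other 3 probes differed by 2.71 to 2.87. With spike-in scaling it was -1.0, and its distance from the median of all features is the same on both scales by construction.

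The promoter of Kpna2 is shown as that of the member with the largest rise, beside that of Xpo1, which rose with it. Both windows are from RefSeq on GRCm38.p6, that of Kpna2 on the minus strand at chr11:106999476-106999775 and that of Xpo1 on the plus strand at chr11:23255791-23256090. Capitals mark CCAAT, bound by NF-Y, and TTTGAA, the cell cycle homology element, which stands here on the other strand and reads TTCAAA.
Kpna2: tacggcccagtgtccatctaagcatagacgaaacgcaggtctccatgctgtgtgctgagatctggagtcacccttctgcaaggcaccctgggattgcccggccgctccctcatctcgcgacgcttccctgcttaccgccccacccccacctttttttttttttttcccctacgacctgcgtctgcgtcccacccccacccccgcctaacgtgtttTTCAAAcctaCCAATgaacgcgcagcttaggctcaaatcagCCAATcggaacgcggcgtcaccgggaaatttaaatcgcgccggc
Xpo1: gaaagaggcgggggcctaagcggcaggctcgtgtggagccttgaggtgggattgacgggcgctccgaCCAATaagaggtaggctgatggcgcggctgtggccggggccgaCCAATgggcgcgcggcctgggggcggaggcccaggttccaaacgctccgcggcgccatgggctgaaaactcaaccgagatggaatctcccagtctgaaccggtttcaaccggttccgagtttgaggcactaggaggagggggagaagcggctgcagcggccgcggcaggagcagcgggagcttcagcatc
Kpna2 held CCAAT at -25 and 6 and TTTGAA at -35, and Xpo1 held CCAAT at -183 and -140. On either strand, CCAAT occurred in 24 of 45 member windows (53.3%) and in 37.4% of all windows, and TTTGAA in 9 (20.0%) and 17.9%. The NRF1 letters GCGCATGC occurred in 6 member windows (13.3%), among them those of Ran, Nup50 and Ranbp1, and in 2.71% of all windows, the ETS letters CCGGAAG in 7 (15.6%) and 8.86%, and the GATA letters AGATAA in 3 (6.67%) and 11.2%. Matches of GCGCATGC on the 2 strands often overlapped, and each window was counted once; the other motifs printed in capitals do not overlap each other. Some windows of the same gene overlapped, as for Ipo9 and Nup37, so the same letters were counted in both windows. Windows were found for 38 of the 48 members. Those not in the table were Kpna1, Kpna3, Kpna6, Nup35, Nup43, Nup85, Nup210l, Ranbp3, Xpo4 and Xpo7.

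Nup50, which sits at the nuclear basket and helps to recycle importins alpha, had 4.47 and 4.2 on EE arrays, against 2.21, 2.31 and 2.14 on MEP arrays and differed by 2.11 ± 0.17 (adjusted p = 2.62e-08). The other basket member, Nup153, had 4.65 and 4.62 on EE arrays, against 3.25, 3.2 and 3.17 on MEP arrays and differed by 1.43 ± 0.11 (adjusted p = 1.58e-08). The groups of both lay over 1 log2 unit apart. All 3 cytoplasmic face members rose as well: Ranbp2 by 0.99 ± 0.15, Nup88 by 0.83 ± 0.19 and Nup214 by 1.63 ± 0.34. Nup214 was dim, however, with means of -1.75 in EE and -3.39 in MEP. Kpna7 and Nup62cl, well above background on 0 arrays, differed by 1.93 and 1.92 between the same groups. The part of array dimness in the rise of Nup214 was not tested. Both central channel members fell. Nup54 had 1.46 and 1.4 on EE arrays, against 3.41, 3.47 and 3.33 on MEP arrays and differed by -1.98 ± 0.11 (adjusted p = 4.11e-10), and Nup62 differed by -0.53 ± 0.16. With spike-in scaling all 7 basket, cytoplasmic face and channel members were lower. Genes of the same pore regions that the symbol rule does not take went otherwise: the channel protein Nupl1 was higher (1.78 ± 0.21, adjusted p = 1.46e-06), the cytoplasmic face protein Nupl2 lower (-0.94 ± 0.12, adjusted p = 2.74e-06), and the basket protein Tpr was not called (-0.17 ± 0.34, adjusted p = 0.65).

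The Y complex was divided. Nup160 and Nup133 rose by 1.38 ± 0.15 and 0.85 ± 0.10, with 3.0 and 3.16 on EE arrays, against 1.69, 1.69 and 1.7 on MEP arrays for Nup160 and 5.01 and 4.98 on EE arrays, against 4.18, 4.22 and 4.04 on MEP arrays for Nup133. Nup43 and Nup37 fell, with differences of -1.22 ± 0.11 and -0.9 ± 0.14, and Nup43 had 1.52 and 1.74 on EE arrays, against 2.85, 2.92 and 2.78 on MEP arrays. Nup85 and Nup107 were not called (0.22 ± 0.12 and 0.05 ± 0.14, adjusted p = 0.101 and 0.752). With normexp background correction Nup133 was at 0.20 and not called (adjusted p = 0.0945). Of the inner ring, Nup35 rose (1.48 ± 0.20), Nup93, Nup188 and Nup205 fell (-0.82 ± 0.13, -1.1 ± 0.21 and -0.63 ± 0.13) and Nup155 was not called. A second probe of Nup188 had the opposite sign (0.89). Nup210, a membrane protein of the pore, rose by 1.35 ± 0.15 and Nup98 by 0.46 ± 0.13.

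Among exportins, 3 rose and 2 fell. Xpo1 had 5.27 and 5.65 on EE arrays, against 3.71, 3.62 and 3.35 on MEP arrays and differed by 1.9 ± 0.18 (adjusted p = 1.01e-07), and its second probe by 0.82. Xpo7 had 1.24 and 2.01 on EE arrays, against -0.39, -0.36 and -0.64 on MEP arrays, without overlap, and differed by 2.09 ± 0.20 (adjusted p = 1.8e-07). Its second probe went the opposite way (-1.24, with means of -1.78 in EE and -0.54 in MEP), so the early step of Xpo7 rests on 1 probe, unlike the late one. Xpo4 had 1.68 and 1.64 on EE arrays, against 0.72, 0.85 and 0.73 on MEP arrays and differed by 0.89 ± 0.13. Xpot had 1.86 and 2.04 on EE arrays, against 3.58, 3.66 and 3.51 on MEP arrays and differed by -1.63 ± 0.17 (adjusted p = 4.1e-07). Xpo6 had -0.18 and -0.48 on EE arrays, against 0.72, 0.48 and 0.66 on MEP arrays and differed by -0.95 ± 0.21 (adjusted p = 0.000716). Both lay below all MEP arrays. Xpo5 was not called (-0.26 ± 0.16, adjusted p = 0.149).

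Ran, Ranbp2 and Ranbp3 rose and Ranbp1 fell. Ran had 9.12 and 8.85 on EE arrays, against 8.2, 8.18 and 8.26 on MEP arrays and differed by 0.77 ± 0.11 (adjusted p = 7.16e-06). With normexp background correction it was at 0.09 and not called (adjusted p = 0.378). The second probe of Ran differed by only 0.21, with means of 3.72 in EE and 3.51 in MEP. Ranbp3 had 6.48 and 6.31 on EE arrays, against 5.2, 5.36 and 5.19 on MEP arrays and differed by 1.14 ± 0.10, and Ranbp2 had 4.18 and 4.4 on EE arrays, against 3.28, 3.24 and 3.37 on MEP arrays. Ranbp1 had 3.59 and 3.67 on EE arrays, against 5.13, 5.21 and 4.92 on MEP arrays and differed by -1.46 ± 0.14 (adjusted p = 2.08e-07). None of these 4 genes overlapped between the groups on the probes used here, in a comparison that called 81.4% of all features. Of the importins alpha other than Kpna2, Kpna1 rose by 1.43 ± 0.21 with 2.28 and 2.35 on EE arrays, against 0.92, 0.9 and 0.83 on MEP arrays. Kpna6 and Kpna3 differed by -0.71 ± 0.17 and -0.41 ± 0.15, but further probes of both genes had the opposite sign (2.03 for Kpna6, 0.25 and 0.81 for Kpna3). Kpna4 was not called (0.03 ± 0.15, adjusted p = 0.863).

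The importins of the beta class held the largest fall. Ipo8, an import receptor that also binds Argonaute proteins, had -1.16 and -0.77 on EE arrays, against 2.24, 2.44 and 1.88 on MEP arrays. The groups were over 2 log2 units apart, with a difference of -3.16 ± 0.24 (adjusted p = 9.4e-09), an 8.92-fold lower signal. Tnpo2 had 2.88 and 2.62 on EE arrays, against 1.18, 0.99 and 0.9 on MEP arrays and differed by 1.72 ± 0.22 (adjusted p = 4.26e-06), and Ipo13 rose by 1.35 ± 0.19. Ipo5 and Ipo4, importers of histones and ribosomal proteins, fell (-1.16 ± 0.18 and -0.8 ± 0.18). Tnpo1 differed by -0.37 ± 0.11 on the probe used (adjusted p = 0.00711), by 1.43 on its second probe and by 0.53 as the mean of both, and without EE replicate 1 its difference was -0.27 (adjusted p = 0.0798). Its direction in this comparison is therefore not settled. The other 5 members of the class were not called.

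**Figure D3:**
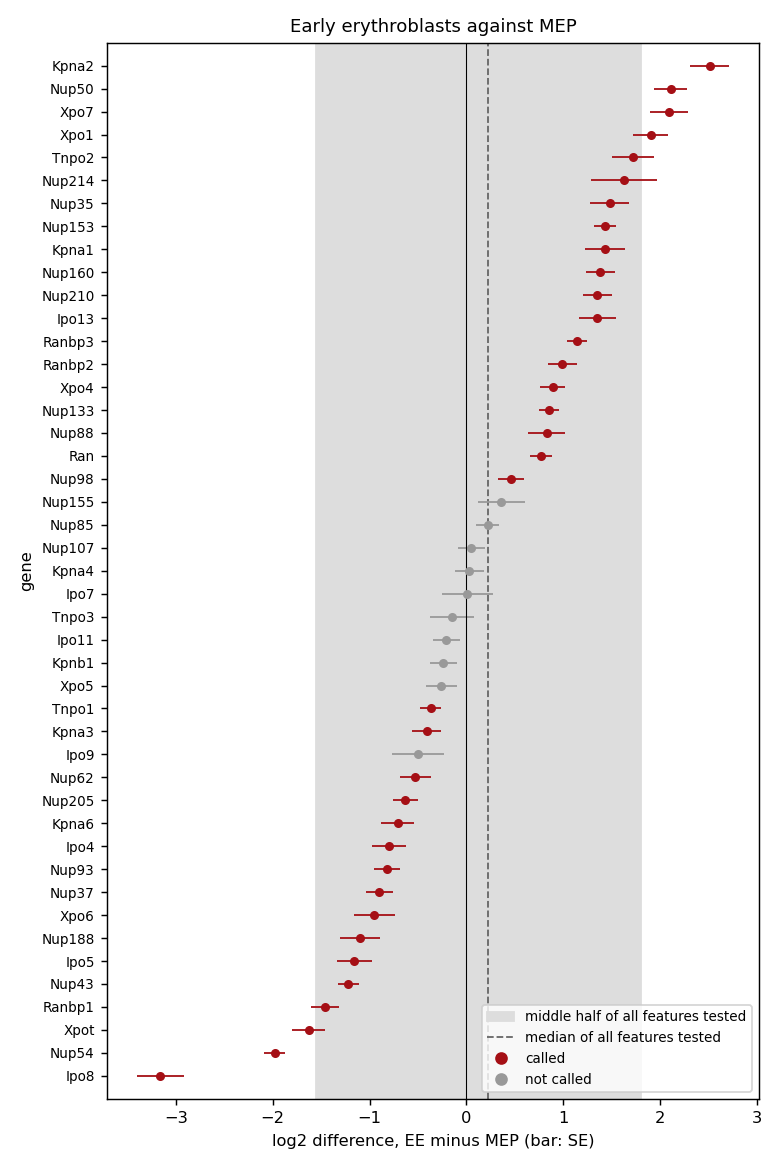
Log2 difference between EE and MEP (horizontal axis) for each of 45 members tested, with bars of 1 SE; red points were called and grey ones were not. Members spread from Ipo8 at -3.16 to Kpna2 at 2.51, mostly inside the shaded middle 50% of all features; with spike-in scaling the 19 called higher turn to lower, as all features shift by about the same amount.

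Of 30 other nuclear transport genes tested, 9 rose and 13 fell. The largest were falls of Ddx19b, an mRNA export helicase (-4.49 ± 0.32), the Ran release factor Rangrf (-4.13 ± 0.21), the ribosome export adaptor Nmd3 (-2.68 ± 0.24) and the small nuclear RNA export adaptor Phax (-2.08 ± 0.18). Ddx19b was dim in EE, at -2.82 and -2.83, and well above background on only 15 of the 19 arrays, which limits the size of its fall. Of 20 cell division genes, 17 rose and 1 fell, with a median difference of 2.50. The summed level of 8 granulocyte markers was 198 to 662 on EE arrays and 48.3 to 101 on MEP arrays, with 7 of the 8 well above background on all arrays in each. That of 6 macrophage markers was 6.79 to 6.99 on EE arrays, with 6 above background, and 0.935 to 1.11 on MEP arrays, with 4. The part of both, and of division, in the members' differences was not tested. Slide 3 alone held both cell types, and there all 35 called members had the same sign, on arrays that also gave the calls. The EE arrays served in both erythroblast comparisons, which therefore share them.

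Granulocytes were compared with GMP, the progenitors of their lineage. Almost the whole set was lower in granulocytes: 39 of 45 members fell and 2 rose, beside 38.8% of all 22943 features tested called lower and 27.7% higher (66.6% in all). The median difference was -1.11 for members and -0.19 for all features. Ranbp1, Nup37, Ipo5, Nup93 and Ipo11 fell most, and the actin exporter Xpo6 and the importin alpha Kpna4 rose. With spike-in scaling (median of all features 0.16), 11 members were called lower and 0 higher, and no sign of the 41 called members turned.

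The Ran group fell as a whole. Ranbp1 had 3.14, 3.03 and 3.22 on GR arrays, against 5.37 and 5.57 on GMP arrays, over 2 log2 units apart, and differed by -2.34 ± 0.14 (adjusted p = 4.55e-09), a 5.05-fold lower signal. Ran had 7.05, 7.03 and 7.17 on GR arrays, against 8.68 and 8.68 on GMP arrays and differed by -1.6 ± 0.11 (adjusted p = 8.88e-09). Its second probe differed by -1.57. Ranbp2 had 2.4, 2.55 and 2.43 on GR arrays, against 3.39 and 3.25 on GMP arrays and Ranbp3 had 4.59, 4.68 and 4.66 on GR arrays, against 5.27 and 5.32 on GMP arrays, with differences of -0.86 ± 0.15 and -0.65 ± 0.10.

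Of 19 nucleoporins tested, 16 fell and 0 rose. Nup37 had 2.53, 2.62 and 2.7 on GR arrays, against 4.91 and 4.78 on GMP arrays and differed by -2.23 ± 0.14 (adjusted p = 6.47e-09), and Nup93, the inner ring organizer, had 3.09, 3.08 and 3.23 on GR arrays, against 5.3 and 5.31 on GMP arrays and differed by -2.17 ± 0.13 (adjusted p = 3.82e-09). Neither overlapped between the groups. All 6 Y complex members fell, between -2.23 ± 0.14 for Nup37 and -1.42 ± 0.15 for Nup160, and Nup133, which rose in late erythroblasts, had 2.59, 2.77 and 2.67 on GR arrays, against 4.36 and 4.18 on GMP arrays and differed by -1.59 ± 0.10 (adjusted p = 8.15e-09). The 3 nucleoporins not called were Nup50 (-0.03 ± 0.17), Nup98 (0.22 ± 0.13) and Nup214 (0.23 ± 0.34), with adjusted p of 0.881, 0.15 and 0.574.

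Xpo6 had 1.37, 1.48 and 1.48 on GR arrays, against 1.07 and 0.55 on GMP arrays. All GR arrays lay above both GMP arrays, with a difference of 0.63 ± 0.21 (adjusted p = 0.0157), but the 2 GMP arrays themselves differed by about as much, and without GMP replicate 2 the difference was 0.38 (adjusted p = 0.215). Kpna4 had 2.93, 2.92 and 3.02 on GR arrays, against 2.53 and 2.58 on GMP arrays, which did not overlap, and differed by 0.4 ± 0.15 (adjusted p = 0.033). Leaving out any 1 of the 5 arrays moved its adjusted p to between 0.0541 and 0.131. GR and GMP arrays shared no slide, and with slide as a block 0 members were called higher (adjusted p = 0.114 for Xpo6 and 0.359 for Kpna4). Both genes nonetheless had their highest mean of all 7 cell types in granulocytes under each of the 5 scalings tried.

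The promoter of Xpo6 is shown as that of the member most raised in granulocytes. It lies on the minus strand of GRCm38.p6 at chr7:126200452-126200751, and capitals mark its only match among the motifs searched, CCAAT at -7 on the other strand, which reads ATTGG.
Xpo6: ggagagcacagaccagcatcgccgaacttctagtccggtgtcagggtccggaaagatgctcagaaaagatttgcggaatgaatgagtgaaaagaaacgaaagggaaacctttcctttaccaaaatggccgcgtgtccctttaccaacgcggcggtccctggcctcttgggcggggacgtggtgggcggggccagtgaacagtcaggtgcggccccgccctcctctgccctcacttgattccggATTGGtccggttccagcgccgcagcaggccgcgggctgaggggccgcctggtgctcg

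The other 5 exportins fell. Xpot had 1.81, 1.93 and 1.95 on GR arrays, against 3.8 and 3.92 on GMP arrays and differed by -1.96 ± 0.17 (adjusted p = 1.35e-07). Xpo5 had 1.29, 1.37 and 1.28 on GR arrays, against 2.55 and 2.31 on GMP arrays and differed by -1.12 ± 0.16, Xpo4 had -0.02, 0.14 and -0.01 on GR arrays, against 0.99 and 1.18 on GMP arrays and differed by -1.05 ± 0.13, and Xpo1 had 3.02, 3.04 and 3.04 on GR arrays, against 3.85 and 3.96 on GMP arrays and differed by -0.87 ± 0.18. Xpo7 had -0.91, -0.87 and -0.94 on GR arrays, against -0.24 and -0.12 on GMP arrays and differed by -0.73 ± 0.20 (adjusted p = 0.00527), and its second probe differed by -1.41. No exportin other than Xpo6 was thus higher in granulocytes. The call of Xpo7 was lost with slide as a block (-0.91, adjusted p = 0.0541) and with the percentile over probes detected on all arrays (-0.43, adjusted p = 0.0685).

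Importins of the beta class fell in all 11 cases. Ipo5 had 0.48, 0.55 and 0.52 on GR arrays, against 2.67 and 2.79 on GMP arrays and differed by -2.22 ± 0.18 (adjusted p = 7.28e-08), and Ipo11 had 1.1, 1.22 and 1.19 on GR arrays, against 3.39 and 3.25 on GMP arrays and differed by -2.15 ± 0.14 (adjusted p = 7.61e-09). Both were more than 2 log2 units lower on average. The smallest fall was -0.49 ± 0.19 for Ipo13 (adjusted p = 0.0342). Of the importins alpha, Kpna2 had 6.2, 6.22 and 6.32 on GR arrays, against 7.13 and 6.95 on GMP arrays, Kpna3 0.98, 0.96 and 0.92 on GR arrays, against 1.99 and 1.63 on GMP arrays and Kpna6 2.02, 2.23 and 2.1 on GR arrays, against 3.17 and 3.03 on GMP arrays, with differences of -0.79 ± 0.20, -0.86 ± 0.15 and -0.98 ± 0.17. All 3 fell, though the second probe of Kpna6 differed by 0.41. Kpna1 was not called, with 0.91, 1.02 and 0.93 on GR arrays, against 1.05 and 0.78 on GMP arrays (0.04 ± 0.21, adjusted p = 0.878).

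Of 30 other nuclear transport genes tested, 24 fell and 1, Nxt2, rose. The largest falls were those of Rangrf (-3.14 ± 0.21), the Ran exchange factor Rcc1 (-2.27 ± 0.16), the importer of Ran itself, Nutf2 (-1.99 ± 0.11), and Ncbp2 of the nuclear cap-binding complex (-1.77 ± 0.22). Of 20 cell division genes, 12 fell, with a median difference of -0.75. The summed level of 8 erythroblast markers was 583 to 625 on GR arrays, with all 8 well above background, and 12.8 to 16.9 on GMP arrays, with 5. The sum of 6 macrophage markers was 71.6 to 75.3 on GR arrays, with all 6 well above background, and 9.35 to 9.44 on GMP arrays, with 4, and their part in the differences was not tested.

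The 2 maturation paths were set against each other in an interaction test: the erythroid change, LE minus MEP, minus the granulocytic change, GR minus GMP. Of 44 members tested, 20 had a higher change in the erythroid path and 12 a lower one, beside 42.4% and 35.8% of all 15037 features tested (78.2% in all). Xpo7 and Nup133 had a positive erythroid and a negative granulocytic change and Xpo6 the opposite, but with spike-in scaling the erythroid change of Nup133 was negative too. The median was 0.36 for members and 0.21 for all features. With normexp background correction 11 were higher and 17 lower, with slide as a block 18 higher and 6 lower, and with spike-in scaling (median of all features -4.59), 1 was higher and 42 lower.

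Xpo7 changed by 6.35 from MEP to LE and by -0.73 from GMP to GR, an interaction of 7.08 ± 0.26 (adjusted p = 5.63e-12). On this probe it was the member that stayed higher with spike-in scaling. Its second probe changed by 0.98 and -1.41, an interaction of 2.39, and the mean of both probes gave 4.74, so the direction held in the scaling used here but the size rests on the probe. Nup133 changed by 1.8 and -1.59, an interaction of 3.39 ± 0.13 (adjusted p = 9.41e-12). The 2 paths thus differed in sign for both genes in the scaling used here, and on the brighter probe of Xpo7 with spike-in scaling too. Nup153 changed by 1.14 and -0.9, with 4.35, 4.23 and 4.45 on LE arrays, against 3.25, 3.2 and 3.17 on MEP arrays and 2.58, 2.73 and 2.69 on GR arrays, against 3.59 and 3.55 on GMP arrays, an interaction of 2.04 ± 0.14 (adjusted p = 4.63e-09). Nup210 changed by 0.05 and -1.77, with 6.96, 6.67 and 6.68 on LE arrays, against 6.75, 6.56 and 6.85 on MEP arrays and 5.5, 5.63 and 5.54 on GR arrays, against 7.37 and 7.28 on GMP arrays, an interaction of 1.82 ± 0.19 (adjusted p = 4.25e-07). Its level overlapped between LE and MEP and fell in granulocytes, while its second probe changed by 1.7 and -1.72, an interaction of 3.42. Xpo4 changed by 0.74 and -1.05, an interaction of 1.79 ± 0.17 (adjusted p = 1.49e-07). On the spike-in scale Nup133, Nup153, Nup210 and Xpo4 stood at -1.41, -2.76, -2.99 and -3.02. Their distances from the median of all features are the same on both scales by construction.

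In the other direction, Xpo6 changed by -2.38 in the erythroid path, with -1.62, -2.09 and -1.57 on LE arrays, against 0.72, 0.48 and 0.66 on MEP arrays, and by 0.63 in the granulocytic one, an interaction of -3.02 ± 0.27 (adjusted p = 8.46e-08). Ipo8 changed by -3.69 and -1.0, with -1.35, -1.68 and -1.47 on LE arrays, against 2.24, 2.44 and 1.88 on MEP arrays and 1.3, 1.19 and 1.13 on GR arrays, against 2.01 and 2.41 on GMP arrays, an interaction of -2.69 ± 0.31 (adjusted p = 1.12e-06). The fall of Ipo8 was therefore present in both paths and larger in the erythroid one. Nup54 changed by -2.82 and -1.11, with 0.66, 0.57 and 0.53 on LE arrays, against 3.41, 3.47 and 3.33 on MEP arrays and 2.4, 2.47 and 2.5 on GR arrays, against 3.68 and 3.44 on GMP arrays, an interaction of -1.71 ± 0.14 (adjusted p = 3.45e-08). Nup98, a mobile nucleoporin that also binds chromatin, changed by -1.08 and 0.22, with -0.46, -0.47 and -0.43 on LE arrays, against 0.55, 0.6 and 0.72 on MEP arrays and 0.59, 0.67 and 0.57 on GR arrays, against 0.44 and 0.35 on GMP arrays, an interaction of -1.3 ± 0.16 (adjusted p = 3.48e-06). Kpna4 changed by -0.81 and 0.4, an interaction of -1.21 ± 0.20 (adjusted p = 5.11e-05). Of the other members called lower, Kpna3, Kpna6 and Nup188 had positive values on their further probes (0.55 and 0.89 for Kpna3, 2.08 for Kpna6, 0.94 and 1.46 for Nup188). The further probes of Nup188 were well above background on 18 and 11 arrays, and the sign of Nup188 also turned with normexp background correction.

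Among cell division genes, 17 of 19 tested had a higher change in the erythroid path and 0 a lower one, and among 27 other nuclear transport genes 7 were higher and 9 lower. The largest of the latter were Nupl2, a cytoplasmic pore protein (2.14 ± 0.15), the mRNA export cofactor Nxt2 (-2.09 ± 0.19), Rcc1 (1.91 ± 0.20) and Phax (-1.81 ± 0.24).

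**Figure D4:**
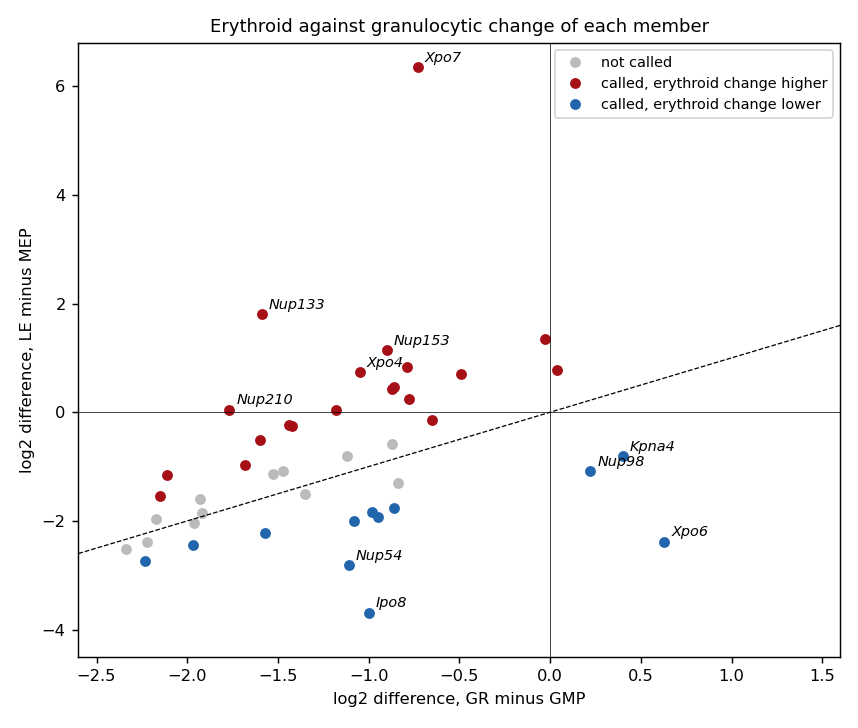
Log2 change from MEP to LE (vertical axis) against that from GMP to GR (horizontal axis) for each of 44 members; red and blue points have a higher or lower erythroid change in the interaction test, and the dashed line marks equal change. Xpo7 (6.35 and -0.73) and Nup133 (1.80 and -1.59) lie at the upper left (the second probe of Xpo7, not drawn, has 0.98 and -1.41) and Xpo6 (-2.38 and 0.63) at the lower right; with spike-in scaling all points move down, Nup133 falls below 0 on the vertical axis and Xpo7 alone is called higher.

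CMP were compared with LSK cells, the compartment that holds the stem cells. The set rose: 31 of 45 members were higher in CMP and 0 lower, beside 23.2% of all 24177 features tested called higher and 13.5% lower (36.7% in all). The median difference was 0.72 for members and 0.17 for all features. Where the percentile came from probes detected on all arrays, 24 rose and 4 fell, and with spike-in scaling all 31 kept their sign and 1 was called.

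Kpna2 rose most, with 6.32, 6.25 and 6.19 on CMP arrays, against 4.2, 4.72 and 4.77 on LSK arrays and a difference of 1.69 ± 0.18 (adjusted p = 4.15e-06), a 3.22-fold higher signal. Nup35 had 3.76, 3.43 and 3.6 on CMP arrays, against 2.21, 2.29 and 2.61 on LSK arrays and differed by 1.23 ± 0.18. All CMP arrays of both genes lay above all LSK arrays. Tnpo1 had 3.59, 3.58 and 3.48 on CMP arrays, against 2.41, 2.52 and 2.29 on LSK arrays and differed by 1.15 ± 0.10 (adjusted p = 8.23e-07), but its second, dimmer probe differed by -0.14, and the mean of both by 0.50 (adjusted p = 0.0516). Nup85 had 6.0, 5.98 and 5.82 on CMP arrays, against 4.73, 4.75 and 4.91 on LSK arrays and differed by 1.14 ± 0.11, and Ranbp1 had 5.42, 5.35 and 5.15 on CMP arrays, against 4.16, 4.15 and 4.19 on LSK arrays and differed by 1.14 ± 0.13. Adjusted p-values were 7.71e-05 for Nup35, 1.66e-06 for Nup85 and 8.76e-06 for Ranbp1.

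By class, 16 of 19 nucleoporins rose, including all 6 of the Y complex (0.75 ± 0.14 for Nup160 to 1.14 ± 0.11 for Nup85). All 4 of the Ran group rose: Ran had 8.38, 8.49 and 8.46 on CMP arrays, against 7.55, 7.55 and 7.57 on LSK arrays and differed by 0.89 ± 0.10 (adjusted p = 5.16e-06), and Ranbp2 and Ranbp3 differed by 0.98 ± 0.14 and 0.72 ± 0.09. Of the exportins, Xpo4, Xpo1, Xpo5 and Xpot rose (1.02 ± 0.12, 0.98 ± 0.16, 0.98 ± 0.15 and 0.59 ± 0.15). Xpo1 had 4.11, 3.96 and 3.68 on CMP arrays, against 2.95, 2.84 and 3.04 on LSK arrays. Xpo6 and Xpo7 were not called, with 0.54, 0.38 and 0.77 on CMP arrays, against 0.56, 0.75 and 0.15 on LSK arrays for Xpo6 and -0.26, -0.66 and -0.33 on CMP arrays, against -0.08, -0.09 and 0.12 on LSK arrays for Xpo7 (differences of 0.07 ± 0.19 and -0.4 ± 0.18, adjusted p = 0.793 and 0.0993). Of the importins alpha, Kpna1, Kpna6 and Kpna3 rose besides Kpna2 (0.58 ± 0.19, 0.54 ± 0.15 and 0.49 ± 0.14), although the arrays of Kpna1 overlapped, and Kpna4 was not called (0.16 ± 0.14, adjusted p = 0.403).

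Of the importins of the beta class, 3 of 11 were called. These were Tnpo1, Ipo5, with 2.98, 2.93 and 2.75 on CMP arrays, against 1.97, 1.61 and 2.0 on LSK arrays and a difference of 1.02 ± 0.16 (adjusted p = 0.000178), and Kpnb1 (0.39 ± 0.12, adjusted p = 0.0218). Of 31 other nuclear transport genes tested, 22 rose and 1 fell, led by Ndc1 (1.4 ± 0.16), Rcc1 (1.22 ± 0.14), Rangrf (1.18 ± 0.19) and Nupl2 (1.1 ± 0.11). Of 20 cell division genes, 19 rose, with a median difference of 1.1, and the part of division in the rise was not tested. The summed level of 8 granulocyte markers was 67.1 to 123 on CMP arrays and 577 to 705 on LSK arrays, and that of 2 markers of lymphoid-primed cells 51.7 to 58.5 and 226 to 319. Their part in the differences was not tested.

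**Figure D5:**
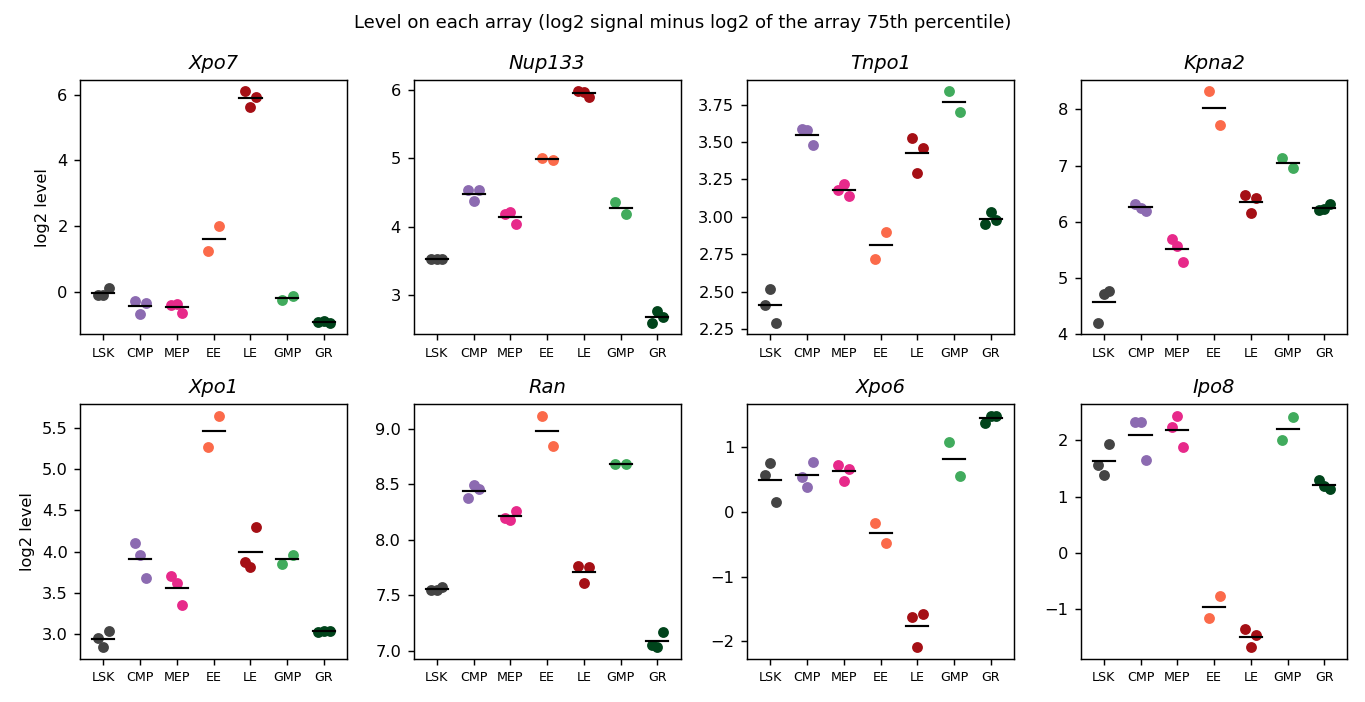
Level of 8 members on each of 19 arrays (points; log2 signal minus log2 of the 75th percentile of the array) by cell type, with bars at the means; the vertical scale differs between panels. Xpo7 and Nup133 peak in LE, Kpna2, Xpo1 and Ran in EE, Tnpo1 in GMP and Xpo6 in GR, and Ipo8 is low in EE and LE. With spike-in scaling the EE peaks of Kpna2, Xpo1 and Ran, the LE peak of Nup133 and the GMP peak of Tnpo1 are lost. With quantile normalization, and with the percentile over probes detected on all arrays, Tnpo1 is highest in LE. Its second probe, not drawn, is also highest in LE (mean 0.04, against -2.21 in GMP). With normexp background correction Ran is highest in GMP. The second probe of Ran, not drawn, is highest in CMP (mean 3.83, against 3.72 in EE).

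MEP and GMP were compared with CMP and with each other as the 2 branches that follow. Between MEP and CMP, 2 of 45 members were called lower and 0 higher, beside 2.60% of all 22837 features called lower and 1.91% higher (4.51% in all). Kpna2 had 5.69, 5.57 and 5.29 on MEP arrays, against 6.32, 6.25 and 6.19 on CMP arrays and differed by -0.74 ± 0.18 (adjusted p = 0.0284). Tnpo1 had 3.18, 3.22 and 3.14 on MEP arrays, against 3.59, 3.58 and 3.48 on CMP arrays and differed by -0.37 ± 0.10 (adjusted p = 0.0485). The groups did not overlap for either gene, but both calls lay near the threshold: Tnpo1 lost its call without any 1 of the 6 arrays (adjusted p between 0.0978 and 0.199), and Kpna2 kept its call without MEP replicate 1 only (without MEP replicate 3 its adjusted p was 0.136). With slide as a block Tnpo1 was not called (adjusted p = 0.0615). The median difference was -0.16 for members, against -0.03 for all features. Of 20 cell division genes, 9 fell, and of 31 other transport genes 1, Rcc1, did (-0.72 ± 0.14, adjusted p = 0.00945).

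Between GMP and CMP, 1 member rose and 2 fell, beside 9.51% and 8.49% of all 22809 features (18.0% in all), and with quantile normalization 0 rose and 3 fell. Kpna2 had 7.13 and 6.95 on GMP arrays, against 6.32, 6.25 and 6.19 on CMP arrays and differed by 0.79 ± 0.20 (adjusted p = 0.0104), and without GMP replicate 1 by 0.70 (adjusted p = 0.104). Ipo11 had 3.39 and 3.25 on GMP arrays, against 4.13, 3.92 and 3.87 on CMP arrays, with GMP below CMP, and differed by -0.66 ± 0.14 (adjusted p = 0.00338). Kpna3 had 1.99 and 1.63 on GMP arrays, against 2.37, 2.15 and 2.3 on CMP arrays and differed by -0.46 ± 0.15 (adjusted p = 0.0476). Without GMP replicate 2 the difference of Kpna3 was -0.28 (adjusted p = 0.392), and its call was lost without each CMP array and with slide as a block (-0.42, adjusted p = 0.196). Of 31 other transport genes, 3 rose and 1 fell: Nxt2 (0.72 ± 0.15), Mcm3ap (0.56 ± 0.17), Sec13 (0.49 ± 0.14) and, lower, Ahctf1 (-0.73 ± 0.16).

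Between MEP and GMP, 2 members rose and 9 fell, beside 13.7% and 18.3% of all 21930 features (32.0% in all). Kpna2 had the largest difference, with 5.69, 5.57 and 5.29 on MEP arrays, against 7.13 and 6.95 on GMP arrays and a difference of -1.53 ± 0.20 (adjusted p = 2.59e-05). Nup107 had 5.08, 4.97 and 4.85 on MEP arrays, against 5.76 and 5.53 on GMP arrays and differed by -0.67 ± 0.14, and Nup210 had 6.75, 6.56 and 6.85 on MEP arrays, against 7.37 and 7.28 on GMP arrays and differed by -0.61 ± 0.15. None of the 3 overlapped. Tnpo1 had 3.18, 3.22 and 3.14 on MEP arrays, against 3.84 and 3.7 on GMP arrays and differed by -0.59 ± 0.11, and Nup37 had 4.37, 4.42 and 4.12 on MEP arrays, against 4.91 and 4.78 on GMP arrays and differed by -0.54 ± 0.14. Ran, with 8.2, 8.18 and 8.26 on MEP arrays, against 8.68 and 8.68 on GMP arrays, was also lower (-0.47 ± 0.10, adjusted p = 0.00293), as were Nup153, Nup160 and Nup205.

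Ipo4 and Ipo11 were higher in MEP than in GMP. Ipo11 had 3.96, 4.07 and 3.74 on MEP arrays, against 3.39 and 3.25 on GMP arrays and differed by 0.61 ± 0.14 (adjusted p = 0.00325). Ipo4 had 3.22, 3.35 and 3.45 on MEP arrays, against 2.93 and 2.43 on GMP arrays and differed by 0.66 ± 0.18 (adjusted p = 0.0103), and without GMP replicate 2 by 0.41 (adjusted p = 0.179). Without GMP replicate 1, 4 members were called lower, and Nup210 and Nup37 were not among them (adjusted p = 0.0512 and 0.0822). With quantile normalization, and with the percentile of detected probes, 4 rose and 3 fell, and with spike-in scaling 0 were called and 8 of the 11 turned sign, among them Nup107, Nup210, Tnpo1, Nup37 and Ran. Of 30 other transport genes, 2 rose and 8 fell, the largest being Ndc1 (-0.98 ± 0.17), Rcc1 (-0.9 ± 0.16), Nupl1 (-0.74 ± 0.21) and, higher in MEP, Ahctf1 (0.8 ± 0.16). All comparisons with CMP or GMP share arrays with one another.

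Of the 48 members, 16 had several probes. For 10 of these, further probes were well above background on all 19 arrays. Over all comparisons, 77 of their 91 differences had the sign of the probe used here and 14 did not, and where the member was called, 58 of 66 had that sign and 8 did not. Among the 3 members without a test, Kpna7 lay between -7.44 and -4.28 and Nup62cl between -7.62 and -4.58, highest on the dim erythroblast arrays, and Nup210l, a relative of Nup210, lay at -0.92 on the array of MEP replicate 3, at -1.31 on that of GMP replicate 2 and between -5.63 and -3.49 on the others.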

How the data were processed

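Total RNA was labelled and hybridised to 19 single-colour Agilent arrays. The authors deposited scanner intensity values per spot, background-corrected by Feature Extraction 11.5.1.1 with protocol GE1_1105_Oct12, per the file headers. Their series values, used here as an alternative only, are background-subtracted intensities of the same scans. For that alternative they were put on a log2 scale and scaled to the 75th percentile here. Of 62543 spots, 1319 controls were left out and the rest averaged per probe (59628 probes). Probes were named through RefSeq accessions (27235 matched), and the brightest probe stood for a gene. Levels are log2 intensity minus log2 of each array's 75th percentile. Differences were fitted in limma 3.58.1 (R 4.3.3) over all arrays, with 12 residual degrees of freedom and Benjamini-Hochberg adjustment over all features tested, and the script was tested on simulated data. Alternatives were normexp on median signals (offset 50), quantile normalization, spike-in scaling, other percentiles, probes, filters, blocks and single arrays left out. Named genes are, per comparison, up to 5 called higher and 5 lower with the largest differences, calls against the majority where at most 5, and all Ran, exportin and importin alpha members. The members and lists were chosen with earlier results of these data known. Promoters come from RefSeq on GRCm38.p6, and the array annotation is on mm9.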

Additional observations from a re-analysis of the deposited data

Results flagged for a closer look

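The following results differed between the 2 maturation paths by the interaction test itself, the change from MEP to LE minus that from GMP to GR. Of 44 members tested, 20 had a higher change in the erythroid path and 12 a lower one, beside 42.4% and 35.8% of all 15037 features tested. In all, 72.7% of members and 78.2% of all features were called, so members were not called more often than other features. The largest higher values were 7.08 for Xpo7, 3.39 for Nup133, 2.04 for Nup153, 1.82 for Nup210 and 1.79 for Xpo4. The value of Xpo7 rests on its brighter probe: the second probe gave 2.39, below Nup133, and the mean of both 4.74, while further probes of Tnpo1 and Nup210 gave 3.75 and 3.42. The largest lower values were -3.02 for Xpo6, -2.69 for Ipo8, -1.71 for Nup54, -1.30 for Nup98 and -1.21 for Kpna4. With spike-in scaling the brighter probe of Xpo7 stood at 2.28 (limma adjusted p = 0.00269), while Nup133, Nup153, Nup210 and Xpo4 turned negative. No group held 4 or more arrays, so no array was tested as an outlier.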

How the results depend on the processing

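Spike-in scaling moved most counts, and the cause was not tested. Under it members called higher were 1 (CMP against LSK), 0 (GMP against CMP), 0 (MEP against GMP), 0 (EE against MEP), 1 (LE against EE), 0 (GR against GMP) and 1 (interaction), and members called lower 0 (MEP against CMP), 0 (GMP against CMP), 0 (MEP against GMP), 44 (EE against MEP), 11 (GR against GMP) and 42 (interaction). All features called were then 1715 (CMP against LSK), 28 (MEP against CMP), 1657 (GMP against CMP), 2972 (MEP against GMP) and 6630 (GR against GMP). Differences that turned were, between MEP and GMP, 0.08 for Nup107, 0.15 for Nup210, 0.17 for Tnpo1 and 0.22 for Nup37, and between EE and MEP, -1.0 for Kpna2, -1.39 for Nup50, -1.42 for Xpo7, -1.61 for Xpo1, -1.78 for Tnpo2, -2.73 for Ran and -2.65 for Nup133. Between LE and EE they were 0.00 for Nup133 and -0.34 for Tnpo1, and in the interaction -1.41 for Nup133, -2.76 for Nup153, -2.99 for Nup210 and -3.02 for Xpo4. With the mean of all probes Tnpo1 was 0.53 between EE and MEP.

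Between MEP and CMP, members called lower were 4 with normexp, 0 with quantile normalization, without a filter on dim probes and with the arrays of these groups only, and 1 with the percentile over detected probes, the mean of all probes, the authors' series values and the replicate block. All features called, 1031 here, were 1985 with normexp, 630 without a filter and 0 with these arrays only. Between GMP and CMP, 0 were higher with quantile normalization, and 1 lower with the mean of all probes, the series values, no filter and these arrays only. Between MEP and GMP, 4 were higher and 3 lower with quantile normalization and with the detected percentile, and 1 higher and 5 lower with these arrays only. Between CMP and LSK, 2 were lower with quantile normalization, 4 with the detected percentile and 1 with the mean of all probes. Between GR and GMP, 1 was higher without a filter and 0 with slide as a block. In the interaction, 11 were higher with normexp and 6 lower with slide as a block. All features called without a filter were 29157 between EE and MEP and 26979 in the interaction, and 14391 in the F test with a strict filter, which changes how many are tested.

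Leaving out 1 array gave, higher and lower, 29 to 31 and 0 to 0 members between CMP and LSK, 0 to 1 lower between MEP and CMP, 1 to 1 and 1 to 2 between GMP and CMP, 1 to 2 and 4 to 7 between MEP and GMP, 19 to 19 and 14 to 18 between EE and MEP, 3 to 3 and 35 to 39 between LE and EE, 0 to 1 and 38 to 39 between GR and GMP, and 19 to 21 and 9 to 12 in the interaction, with 44 to 45 in the F test. All features called were 7420 to 8074, 294 to 1229, 2920 to 3589, 5092 to 6580, 18091 to 18745, 10350 to 11232, 13493 to 14632 and 11091 to 11898 in the same order, and 23651 to 24566 in the F test. A lone array was then assumed to vary like the other groups.

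Arrays that share a replicate number did not deviate together (52 correlations, -0.52 to 0.48, median -0.02), whereas 30 pairs on 1 slide had a median of 0.27. The replicate block left 1 member lower between MEP and CMP, without Tnpo1 (adjusted p = 0.0739). On every slide holding both groups of a comparison, called members kept their sign, but these arrays also gave the calls. GR and GMP shared no slide, so their calls could not be looked at in this way. The dim erythroblast arrays limit low signals.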
